A study of Homo sapiens with 4 samples.

Results

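The regions described here were the distal elements with the strongest open-chromatin signal under both conditions of an ATAC-seq experiment on human pancreatic progenitors (PPs). ATAC-seq maps open chromatin with the transposase Tn5, which inserts adapters where DNA is not wrapped in nucleosomes. Peaks of 4 libraries were merged wherever they overlapped, which gave 164301 regions on chromosomes 1 to 22, X and Y, and 25627 of them were called in all 4 libraries. In each library these shared regions were ranked by their highest fold enrichment, the read pileup at the summit over the local background, and the rank was written as a percentile from 0 to 100. Members were chosen by these measured values: percentile 80 or above in all 4 libraries, and more than 3 kb from every start of a protein-coding gene in GENCODE release 44. This gave 792 members out of 16287 shared distal regions, leaving 15495 other shared distal regions and 9340 shared regions near gene starts as the comparison sets.

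The PPs came from MEL1, an established human embryonic stem cell line that the study's methods list as MEL1 INS GFP/W, so all libraries share one genetic background and one line. All cells were kept for 7 days in EF6, a basal medium with B27, EGF at 50 ng/ml, bFGF at 10 ng/ml and the TGFβ receptor inhibitor 616452 at 10 μM. The DMSO group received the vehicle, and the I-BET151 group received 1 μM I-BET151, which keeps BET bromodomain proteins off acetylated histones (EF6I). Each group had 2 libraries of 50000 cells. The p-values measure only spread between these libraries, which may be technical. In the limma fits the spread of each region was moderated toward that of all regions tested. The SE and p of a region are therefore not its own replicate spread alone. The lists held 82568 and 38295 peaks with DMSO and 84995 and 111324 peaks with I-BET151. The labelled cell type was checked at promoters. A peak lay within 3 kb of the start in all 4 lists for 7 of 10 pancreatic progenitor markers, PDX1, NKX6-1, SOX9 and FOXA2 among them. Of 5 endocrine markers, 0 had a peak in all 4 lists. NEUROD1 and GCG had one in both I-BET151 lists only, and NEUROG3 and NKX2-2 in DMSO replicate 1 only. A peak in both I-BET151 lists only was also found for GATA4 (progenitor), DPPA4 (pluripotency), TTR (hepatic) and PRRX1 (mesenchymal), so it was not particular to endocrine markers. ALB and CDX1 had one in I-BET151 replicate 2 only. The progenitor marker ONECUT1 lacked one in DMSO replicate 2 alone, the shortest list. Markers of other cell types also had a peak in all 4: AFP and APOA1 of 4 hepatic, CDX2 and VIL1 of 3 intestinal, TWIST1, COL1A1 and VIM of 4 mesenchymal and LIN28A of 4 pluripotency markers. PTF1A, POU5F1, NANOG and INS had no peak in any list.

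Distal open regions include enhancers, which raise transcription of genes on the same chromosome when transcription factors bind them, and insulators, which are usually bound by CTCF and shape chromatin loops. In pancreatic progenitors, enhancers are known to carry sites for FOXA, GATA, HNF1, ONECUT1 (HNF6), SOX9 and homeodomain factors such as PDX1, and epithelial enhancers carry sites for AP-1 and for TEAD, the DNA-binding partner of YAP. Promoters instead tend to be rich in CpG dinucleotides and in sites for SP/KLF, ETS, NF-Y and NRF1 factors. An ATAC-seq signal from many cells does not separate a region open in more cells from one open more widely in each cell.

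The sequences below, read from hg38 on the forward strand, are examples from around the summits of members, chosen by rank and by consensus match. They do not follow the share of each kind, and the CTCF consensus was found in 11 of 792 members. Each is named by the nearest protein-coding gene start, and none overlaps an annotated exon. First are 60-base stretches from the 6 strongest eligible members with a match to the CTCF consensus, with the match in capitals:
AADAT, chr4:170259789-170259848: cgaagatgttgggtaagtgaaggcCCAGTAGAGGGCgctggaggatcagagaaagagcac
PXYLP1, chr3:141192393-141192452: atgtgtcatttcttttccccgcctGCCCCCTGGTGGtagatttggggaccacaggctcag
MAP3K7, chr6:90479483-90479542: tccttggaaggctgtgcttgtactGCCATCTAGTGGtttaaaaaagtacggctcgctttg
ZNF629, chr16:30814420-30814479: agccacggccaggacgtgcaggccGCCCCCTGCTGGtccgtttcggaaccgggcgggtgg
EMP1, chr12:13255875-13255934: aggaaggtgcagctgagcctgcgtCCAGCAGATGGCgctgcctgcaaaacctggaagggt
OR2A14, chr7:144127884-144127943: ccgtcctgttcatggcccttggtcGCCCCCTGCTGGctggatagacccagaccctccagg

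The next windows are the 4 strongest eligible members without a CTCF match, each 201 bases centred on the summit, with any match to the other 18 consensus sequences in capitals:
PROS1, chr3:93470476-93470676: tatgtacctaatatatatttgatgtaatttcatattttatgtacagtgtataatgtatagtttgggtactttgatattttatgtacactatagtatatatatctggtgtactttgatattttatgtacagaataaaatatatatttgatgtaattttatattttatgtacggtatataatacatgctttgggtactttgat
WSB1, chr17:26603812-26604012: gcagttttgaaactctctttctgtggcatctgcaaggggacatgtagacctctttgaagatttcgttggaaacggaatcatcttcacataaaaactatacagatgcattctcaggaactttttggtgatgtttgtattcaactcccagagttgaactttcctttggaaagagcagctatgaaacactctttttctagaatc
COL12A1, chr6:74534666-74534866: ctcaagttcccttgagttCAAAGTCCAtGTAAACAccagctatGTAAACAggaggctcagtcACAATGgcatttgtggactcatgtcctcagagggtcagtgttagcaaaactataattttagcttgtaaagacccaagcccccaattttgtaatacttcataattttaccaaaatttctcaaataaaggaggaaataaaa
NEMP1, chr12:57078874-57079074: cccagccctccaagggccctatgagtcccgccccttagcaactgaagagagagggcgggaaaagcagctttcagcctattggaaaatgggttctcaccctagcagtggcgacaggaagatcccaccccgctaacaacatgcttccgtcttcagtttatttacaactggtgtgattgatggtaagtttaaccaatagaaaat
In the COL12A1 window the capitals mark, from left to right, an HNF4 match, a FOXA match next to it, a second FOXA match and a SOX match. The PROS1, WSB1 and NEMP1 windows held no match.

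A further set of 201-base windows, chosen after the values were seen, shows the kinds of sequence that the shares below describe, again with every match to the 19 sequences in capitals. KCNA4 and ISL1 carry both a TEAD match (GGAATG, or CATTCC on the other strand) and an AP-1 match (TGANTCA, with G as the free base), with a GATA match on the left of the ISL1 window and a SOX and an HNF6 match in the KCNA4 window. TMEM168 carries an HNF6 match (TATTGAT), TMEM161B and TRIM75 an NF-Y match on the reverse strand (GATTGGCT), and NRP1 an AP-1 match and an ETS match (CCGGAAGT). The TMEM161B window also holds an SP/KLF match on the left of the NF-Y match and a TFAP2 match (GCCNNNGGC) on its right. The TMEM161B, TRIM75 and NRP1 regions lie within 1 kb of a transcript start:
KCNA4, chr11:29773846-29774046: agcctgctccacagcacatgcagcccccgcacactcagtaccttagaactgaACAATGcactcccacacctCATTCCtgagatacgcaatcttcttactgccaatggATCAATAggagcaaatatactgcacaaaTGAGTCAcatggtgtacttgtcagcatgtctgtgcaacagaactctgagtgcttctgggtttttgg
ISL1, chr5:51882736-51882936: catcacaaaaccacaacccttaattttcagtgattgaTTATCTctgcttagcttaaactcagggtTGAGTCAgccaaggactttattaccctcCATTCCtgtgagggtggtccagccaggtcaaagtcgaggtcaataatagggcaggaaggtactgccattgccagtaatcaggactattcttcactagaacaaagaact
TMEM168, chr7:112692465-112692665: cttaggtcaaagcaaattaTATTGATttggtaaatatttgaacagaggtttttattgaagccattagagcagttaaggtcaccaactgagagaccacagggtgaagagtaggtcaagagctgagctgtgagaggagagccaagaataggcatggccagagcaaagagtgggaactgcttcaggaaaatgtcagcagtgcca
TMEM161B, chr5:88141430-88141630: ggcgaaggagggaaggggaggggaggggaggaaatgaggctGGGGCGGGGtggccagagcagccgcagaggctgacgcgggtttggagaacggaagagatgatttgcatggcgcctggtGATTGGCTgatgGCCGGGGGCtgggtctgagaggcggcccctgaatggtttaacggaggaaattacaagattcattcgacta
TRIM75, chr4:165112929-165113129: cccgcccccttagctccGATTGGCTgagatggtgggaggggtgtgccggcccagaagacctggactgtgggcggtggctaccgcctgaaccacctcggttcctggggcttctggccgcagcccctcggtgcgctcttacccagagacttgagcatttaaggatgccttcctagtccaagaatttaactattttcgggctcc
NRP1, chr10:33264390-33264590: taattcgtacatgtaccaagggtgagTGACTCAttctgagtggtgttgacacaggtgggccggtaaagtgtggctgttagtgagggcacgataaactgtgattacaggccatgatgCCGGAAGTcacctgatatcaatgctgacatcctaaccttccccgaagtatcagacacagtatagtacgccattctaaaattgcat

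The members made up from 0.711% to 2.07% of the peaks in the 4 lists. Their median fold enrichment was 8.80 and 8.13 in the DMSO libraries and 13.9 and 16.2 in the I-BET151 libraries, against 5.16, 4.60, 8.33 and 10.0 over all shared regions. These medians were higher in the I-BET151 libraries for members and for all shared regions, so levels are set against each other below by rank within a library. The weakest member reached 6.95, 6.30, 11.5 and 13.1 in the 4 libraries in the same order. The number of reads piled up at the summit, recovered from the fold enrichment and p of each peak, had medians of 43, 43, 49 and 105 reads in that order. The lowest pileup of a member was 26, 26, 22 and 38 reads.

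The threshold cut through a continuous distribution. Of the shared distal regions, 11491 were at percentile 80 or above in no library, 1995 in 1, 1345 in 2, 664 in 3 and 792 in all 4. The 3 members just inside were regions near RAB3C (an intron of PDE4D), CDH7 and DCP1A, whose lowest percentiles were 80.04, 80.04 and 80.04. The 3 shared distal regions just outside, near CCR9, ENSG00000285458 (an intron of AFF1) and FDX1, had lowest percentiles of 79.99, 79.94 and 79.88. At the top, 7 members were at percentile 99 or above in every library, and 261 were at 90 or above.

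The strongest members fell into 3 kinds: regions in repeat-rich parts of chromosomes, regions at further transcript starts of known genes, and regions away from any start. The first in rank was chr3:93470285-93470950, in the pericentromeric part of chromosome 3, 509 kb from PROS1, with a G + C content of 21.9% and pileups of 270, 3902, 283 and 2303 reads in DMSO replicates 1 and 2 and I-BET151 replicates 1 and 2. Replicate 2 was many times above replicate 1 in both groups there. The second was chr17:26603613-26604304, 690 kb from WSB1 and also pericentromeric, with 85, 408, 39 and 86 reads. It stood highest in DMSO replicate 2.

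The third, chr6:74534453-74535291, lay in an intron of a lncRNA 671 kb from COL12A1, which encodes a collagen, and had fold enrichments of 15.8, 15.6, 21.1 and 23.9. Its pileups were 60, 66, 69 and 165 reads, so it was among the strongest regions in every library. Its window is the one above with 2 FOXA matches, an HNF4 match and a SOX match. The region in an intron of MAP2 (chr2:209495820-209496558), a gene for a neuronal microtubule-associated protein, was 71.8 kb from the gene start and had fold enrichments of 13.8, 13.5, 17.6 and 20.9. The region near OTOL1 (chr3:161890054-161890642) was 393 kb from that gene, which encodes a protein of the inner ear, and had fold enrichments of 13.1, 11.8, 19.6 and 22.2. The region near TMEM168 (chr7:112692237-112692818), in an intron of the lncRNA LINC03076, had 11.4, 11.5, 23.4 and 24.2. Both I-BET151 fold enrichments exceeded both DMSO ones in the COL12A1, MAP2, OTOL1 and TMEM168 regions alike, as did the medians over all shared regions. The difference in rank of the TMEM168 region did not pass the test across all shared regions (adjusted p = 0.0819, limma).

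Of the top 10 regions, 3 held a start of a further transcript of the nearest gene. The region near NEMP1 (chr12:57078531-57079263), a gene for a nuclear membrane protein, was 8.8 kb from the annotated gene start and had fold enrichments of 11.9, 13.7, 18.7 and 23.1. The region near BBS9 (chr7:33129088-33130144), a subunit of the BBSome that moves proteins into cilia, had 11.9, 12.5, 18.1 and 21.1, and its window held 10 CpG dinucleotides. The region near INTU (chr4:127632536-127633272), which takes part in the formation of cilia, had 12.7, 11.5, 21.7 and 22.7, and its summit lay in a UTR. The remaining region, 14.6 kb from ANKRD9 (chr14:102524440-102525320), had 11.2, 11.6, 20.3 and 20.4. In each of these regions fold enrichment was higher in both I-BET151 libraries, as it was over all shared regions.

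Distance to the starts of other transcripts was not used by the rule. Of the members, 265 of 792 (33.5%, 95% Wilson interval 30.3 to 36.8) lay within 1 kb of a start of another protein-coding or lncRNA transcript, against 19.5% (18.9 to 20.1) of the other shared distal regions. A start lay inside the region itself for 248 members (31.3%), against 15.2% of the other shared distal regions. For 189 members the start within 1 kb belonged to a protein-coding gene, and for 76 it belonged only to a lncRNA. Which of a gene's transcript starts is its main one was not tested. A start more than 3 kb from the gene start therefore need not be a minor one. In the other shared distal regions these shares were 13.2% and 6.32%, and in the members 23.9% and 9.60%. Without DMSO replicate 2 or without I-BET151 replicate 1 in the rule, the share of members near such a start was 28.9% and 27.3%. With ranks by −log10 p in the rule, which kept 482 of the 792 members among 760, it was 47.5%.

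The median distance of the members to a protein-coding gene start was 58.4 kb, against 55.4 kb for the other shared distal regions. More than 500 kb from any protein-coding gene start were 9.85% of the members (7.96 to 12.1) and 5.78% of the other shared distal regions (5.42 to 6.15). The summit lay in an intron of a protein-coding gene for 30.7% of the members, against 39.2% of the others, in a lncRNA exon for 4.55% against 1.68%, and between genes for 47.5% against 42.5%. Members were spread widely: 728 genes were nearest to a member, 8 of them to 3 members, and 18 neighbouring pairs lay within 50 kb of each other. Among autosomes, the share of shared distal regions that were members ran from 1.96% on chromosome 22 to 7.43% on chromosome 4, where 78 of 1050 were members.

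The members within 1 kb of another start and the 527 members away from one had different base compositions. The median G + C content of the 201-base window was 60.7% near starts and 45.3% away from them, and the median number of CpG dinucleotides was 13 and 2. In the other shared distal regions the same medians were 59.7% and 47.3% G + C and 8 and 2 CpG dinucleotides, so the members near starts held more CpG than other distal regions near starts. The members near starts were also wider, with a median of 878 bp against 718 bp.

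**Figure D1:**
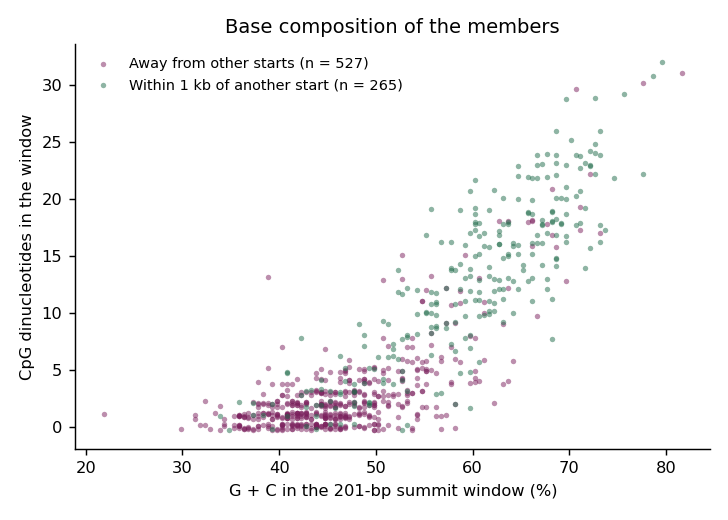
G + C content (horizontal axis, percent) and number of CpG dinucleotides (vertical axis, jittered) in the 201-bp summit window; each point is a member. Members within 1 kb of another start (green, n = 265) had medians of 60.7% G + C and 13 CpG, and members away from other starts (purple, n = 527) had 45.3% and 2.

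A total of 19 consensus sequences were searched on both strands within 100 bp of the summit. Matches are a description of the sequence and not of binding, and the same letters in reversed order were searched as a gauge of base composition. The CTCF consensus was found in 11 of 792 members (1.39%, 0.777 to 2.47), against 3.27% of the other shared distal regions and 0.760% of the shared regions near gene starts. The reversed letters were found in no member, which allows a share of up to 0.379% (3 of 792). With up to 1 mismatch the share in members was 5.68%. That share was not computed for the other sets or the reversed letters, so the comparison of CTCF shares covers exact matches only. Over all members, AP-1 was found in 16.2% (13.8 to 18.9) against 15.4% of the other shared distal regions, TEAD in 16.4% against 16.9%, SOX in 95 of 792 (9.91% to 14.4%) against 11.4%, and HNF6 in 5.56% (4.16 to 7.38) against 4.03% (3.73 to 4.35). None of these differed beyond the intervals. The split by distance to another start, used next, was made after these shares were seen.

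In the 527 members away from starts, AP-1 (TGANTCA) was found in 21.1% (17.8 to 24.7), against 16.4% (15.8 to 17.1) of the other shared distal regions away from starts. TEAD (GGAATG) was found in 21.3% (18.0 to 24.9) against 17.9%, and HNF6 (TATTGAT), the site of the pancreatic regulator ONECUT1, in 7.21% (5.30 to 9.74) against 4.64%. SOX (CATTGT) was found in 16.1% (13.2 to 19.5) against 12.4%, and homeodomain sites (TAATTA) in 8.16% (6.11 to 10.8) against 5.59%. The intervals for AP-1, HNF6, SOX and homeodomain sites did not overlap between the 2 sets, and those for TEAD did. For AP-1 and HNF6 the reversed letters gave 6.45% and 2.28% in members and 6.08% and 1.39% in the others. The shares in both sets thus stood well above those of the reversed letters. For HNF6 the reversed letters were also more frequent in the members, and the part of base composition in its difference was not tested. For homeodomain sites the reversed letters gave 7.21% in members and 5.63% in the others, close to the forward shares, and for SOX 10.4% and 8.02%.

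For other factors of the pancreatic lineage the intervals of the sets overlapped. The site of GATA factors, spelled AGATAA, was found in 18.4% (15.3 to 21.9) of the members away from starts and 18.5% of the others. FOXA (TGTTTAC) was found in 6.64% (4.81 to 9.10) and 6.89%, and HNF1 (GTTAATNAT) in 3.80% (2.47 to 5.79) and 2.93%. CTCF went the other way, with 1.52% (0.771 to 2.97) against 3.52% (3.21 to 3.86).

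In the 265 members within 1 kb of another start, NF-Y (AGCCAATC) was found in 6.42% (4.04 to 10.0), against 2.12% (1.66 to 2.70) of the other shared distal regions near starts. The reversed letters of NF-Y were found in none of these members and 0.132% of the others. ETS (CCGGAAGT) was found in 4.91% (2.89 to 8.21) against 2.15% (1.69 to 2.73), and its reversed letters in 1.51% against 0.563%. SP/KLF (GGGGCGGGG) was found in 11.7% against 11.6%. AP-1 and TEAD were lower in these members, with 6.42% and 6.79%, than in the other shared distal regions near starts, with 11.3% and 12.5%. Over all members, 251 of 792 windows held none of the 19 sequences.

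Summits were placed more tightly in the members. The distance between the outermost summits of the 4 libraries had a median of 95 bp (quartiles 75 and 117) in the members and 128 bp (95 and 199) in the other shared distal regions. The members are the stronger peaks, and the part of read depth in this difference was not tested. Members were also slightly wider, with a median of 765 bp against 722 bp.

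Some members lay in sequence that occurs more than once in the genome, where reads cannot be placed with certainty. A second copy of at least 95% identity over at least 80% of the window was found for 13 members (1.64%, 0.962 to 2.79), against 0.458% (0.363 to 0.578) of the other shared distal regions, and all 13 were away from transcript starts. Of these, 6 lay within 120 kb of a chromosome end, near ANHX, WASH6P, PARD6G, DUX4, TUBB8 and RABL2B. Their windows had from 336 to 686 further alignments at that identity. Overlapping alignments were not merged, so these are not numbers of distinct copies. A pair of regions on chromosome 1 near OR4F16 (chr1:629810-630186 and chr1:633902-634272) matched the mitochondrial genome, from which reads had been removed by the authors after alignment. Of the other 5, the regions near WSB1, ROCK1, FAM72B and ENSG00000284209 were pericentromeric, and the fifth was near NID1.

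The pileup in the 13 members was higher in DMSO replicate 2 than in DMSO replicate 1 in every case. The lowest, median and highest pileups were 29, 110 and 173 reads in DMSO replicate 1, 47, 314 and 926 in DMSO replicate 2, 22, 39 and 98 in I-BET151 replicate 1, and 38, 77 and 187 in I-BET151 replicate 2. The DMSO replicates differed there by a median factor of 3.02, whereas in the 779 members without a second copy the factor was 1.00. The region nearest DUX4 at the end of chromosome 4 (chr4:190122470-190123204) had 110, 279, 24 and 38 reads, and the region near ANHX at the end of chromosome 12 (chr12:133264861-133265435) had 169, 559, 33 and 92. In reads, which are not scaled for depth, both DMSO libraries were above both I-BET151 libraries in these regions. Per 1 M reads at the depths estimated below, the DUX4 region had 2.84, 7.62, 1.93 and 2.38 reads, and the ANHX region had 4.37, 15.3, 2.65 and 5.75, so the groups overlapped at ANHX.

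A pileup in DMSO replicate 2 of more than 2 times that in DMSO replicate 1 was found in 17 members, 10 of them with a second copy and 7 without. The 7 were chosen after their values were seen. They included the PROS1 region and a region on chromosome 17 near KCNJ18 (chr17:22520803-22521753) with 81, 1926, 80 and 2133 reads. In both of these regions replicate 2 stood above replicate 1 with I-BET151 as well.

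**Figure D2:**
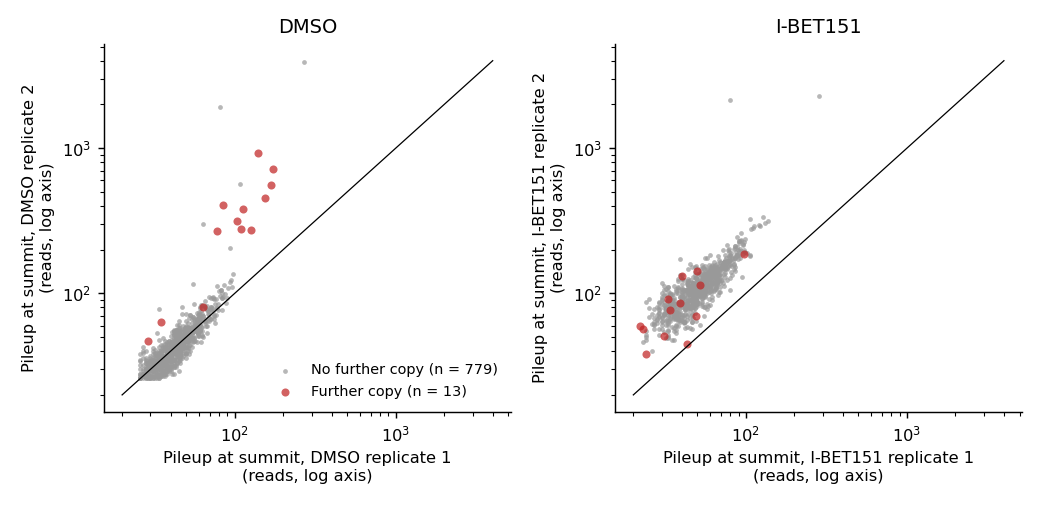
Reads piled up at the summit of each member in replicate 1 (horizontal) and replicate 2 (vertical) of DMSO (left) and I-BET151 (right), on log axes with the line of equality. The 13 members with a second copy (red) reached 926 reads in DMSO replicate 2 and 173 in DMSO replicate 1, and the PROS1 region is the grey point at 270 and 3902.

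A gene with a known role in the pancreas was rarely the nearest one, in the members as in the other shared distal regions. Of 42 pancreatic genes listed, 5 were nearest to a member, which is 0.631% of the members against 0.813% of the other shared distal regions, and of 41 Notch pathway genes 1 was, or 0.126% against 0.284%. With counts of 5 and 1, no difference is read from these shares. No member was nearest to a gene of the liver and intestine, pluripotency or epithelial lists, of 20, 14 and 20 genes. Of the other shared distal regions 0.168%, 0.110% and 0.207% were, and a count of 0 members allows a share of up to 0.379%, so no difference was detectable. The nearest gene need not be the one a distal region acts on.

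The strongest of the 6 was the MEIS2 region (chr15:36896888-36897442), in an intron of this homeodomain cofactor and at a start of one of its transcripts, 204 kb from the gene start, with fold enrichments of 8.80, 8.51, 15.7 and 17.6. The GLIS3 region (chr9:4235603-4236440), in an intron of this regulator of beta cell development, had 9.15, 7.68, 14.2 and 16.2. The HNF4G region (chr8:75483349-75483801), 75.4 kb from this nuclear receptor gene, had 7.76, 7.21, 13.4 and 15.8. Percentiles in these 3 regions ran from 87.6 to 97.7, and the DMSO and I-BET151 ranks overlapped in the GLIS3 region alone. Both I-BET151 ranks were above both DMSO ranks in 27.1% of all shared regions. None of the 3 differences in rank passed the test across all shared regions (adjusted p = 0.491, 0.863 and 0.673, limma).

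The ISL1 region (chr5:51882545-51883083), 499 kb from this endocrine LIM-homeodomain gene, had fold enrichments of 7.50, 6.97, 14.1 and 16.6, and its percentiles were 85.6 and 86.0 with DMSO and 94.0 and 95.7 with I-BET151. The BICC1 region (chr10:58468182-58469110), 43.8 kb from a gene for an RNA-binding protein, had 7.79, 7.87, 11.8 and 13.7, with percentiles of 88.0, 91.1, 82.4 and 84.2. The MIB1 region (chr18:21740358-21741497), at a further start of the gene for a ubiquitin ligase that activates Notch ligands, had 8.80, 8.81, 15.0 and 14.3. The I-BET151 libraries were above the DMSO libraries in rank for ISL1 and below for BICC1, and neither difference passed the test across all shared regions (adjusted p = 0.366 and 0.666, limma).

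The comparison of I-BET151 with DMSO asked which regions changed in rank when BET proteins were inhibited. It was fitted by limma to normal scores of the ranks in all 25627 shared regions, and the rows of the members were read from it. Membership required percentile 80 or above in all 4 libraries, which bounds the shift a member can show, so the counts describe the members and nothing is read from their size. In all, 8 members were called higher and 3 lower at an adjusted p under 0.05, or 1.01% and 0.379%, where 3.41% of all shared regions were called higher and 1.96% lower. Single libraries were left out in turn with the regions tested and the 792 members kept, where the spread comes from the pair of libraries in the other group and the lone library is assumed to vary like them. Without DMSO replicate 1 limma called 1 member higher, near TENM2, and 0 lower (15 lower at an unadjusted p under 0.05), and without DMSO replicate 2 it called 0 higher (17 at an unadjusted p under 0.05) and 1 lower, near DUX4. There were 16 higher and 4 lower without I-BET151 replicate 1, and 16 and 17 without I-BET151 replicate 2. The calls over all shared regions also fell without either DMSO library and rose without either I-BET151 library. Before adjustment in the fit of all 4 libraries, 52 members were higher and 37 lower at p under 0.05 (limma). Over all 25627 shared regions, 3324 were higher and 3048 lower at that p. Both I-BET151 ranks were above both DMSO ranks in 234 members (29.5%) and below in 165 (20.8%), where the shares over all shared regions were 27.1% and 28.1%. The median change in percentile over the members was 0.378, with quartiles of -3.04 and 4.39.

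The 8 members called higher were near TENM2, ARHGAP17, ZNF254, UGT3A2, MAT2B, GADD45A, MCOLN3 and NECTIN3. The largest rise was in the region 20.8 kb from TENM2, a gene for a teneurin of cell adhesion (chr5:166957630-166958266), whose fold enrichments were 8.33, 6.93, 22.0 and 20.4 and whose percentiles went from 91.6 and 85.6 with DMSO to 100 and 99.7 with I-BET151. Its difference was 1.93 ± 0.41 normal scores (moderated SE, n = 2 per group, adjusted p = 0.0191, limma). Its window held a TEAD and an HNF6 match, and TENM2 was nearest to 3 members. The region near ARHGAP17 (chr16:25031406-25031940), at a lncRNA start and with an ETS match, rose from percentiles of 87.2 and 95.8 to 99.9 and 99.9 (adjusted p = 0.0275, limma).

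The region near GADD45A (chr1:67700530-67701359), a stress-induced gene, had percentiles of 87.5 and 89.7 with DMSO and 99.6 and 99.5 with I-BET151. The region near MAT2B (chr5:163696090-163696906), the regulatory subunit of the enzyme that makes S-adenosylmethionine, went from 86.1 and 82.9 to 99.2 and 99.5. The region near ZNF254 (chr19:24086943-24087653), at a further start of this zinc finger gene, went from 87.7 and 81.9 to 99.8 and 98.5. The region near UGT3A2 (chr5:36079195-36079820) was the 1 of the 8 with a CTCF match, and it went from 80.6 and 94.2 to 99.1 and 99.9. In all of these regions the DMSO and I-BET151 ranks did not overlap. The regions were called on these same ranks, so the separation adds no support to the calls. Both I-BET151 ranks were above both DMSO ranks in 27.1% of all shared regions. The 8 adjusted p-values ran from 0.0191 to 0.0486 (limma). With ranks by −log10 p in place of fold enrichment, limma called none of the 8 and no other member higher (22 at an unadjusted p under 0.05). By these ranks it called only 8 of all 25627 shared regions higher and 27 lower.

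The 3 members called lower were near DUX4, PARD6G and TPTE. The DUX4 region fell by 2.01 ± 0.38 normal scores (moderated SE, n = 2 per group, adjusted p = 0.0123, limma). Its percentiles went from 100 and 99.9 to 89.4 and 92.5, and those of the PARD6G region (chr18:80262828-80263401) from 100 and 100 to 96.9 and 98.6. These 2 are among the 13 regions with further copies. The TPTE region (chr21:8234071-8234795), on the short arm of chromosome 21, went from 97.9 and 99.7 to 82.1 and 82.4, with pileups of 94, 205, 35 and 48 reads. The regions near TUBB8 and RABL2B had differences of -1.61 and -1.65 normal scores, larger in size than those near PARD6G and TPTE (-1.56 and -1.48), but did not pass the test (adjusted p = 0.0544 and 0.0695, limma), and both also have further copies. Both were called lower with the replicate number as a block and by ranks of −log10 p, which made 5 members lower in each case. When distal regions with a second copy were left out of the fit, 9 members were called higher and 2 lower, the TPTE region among the latter. Shared regions near gene starts were not searched for copies and all stayed in that fit.

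**Figure D3:**
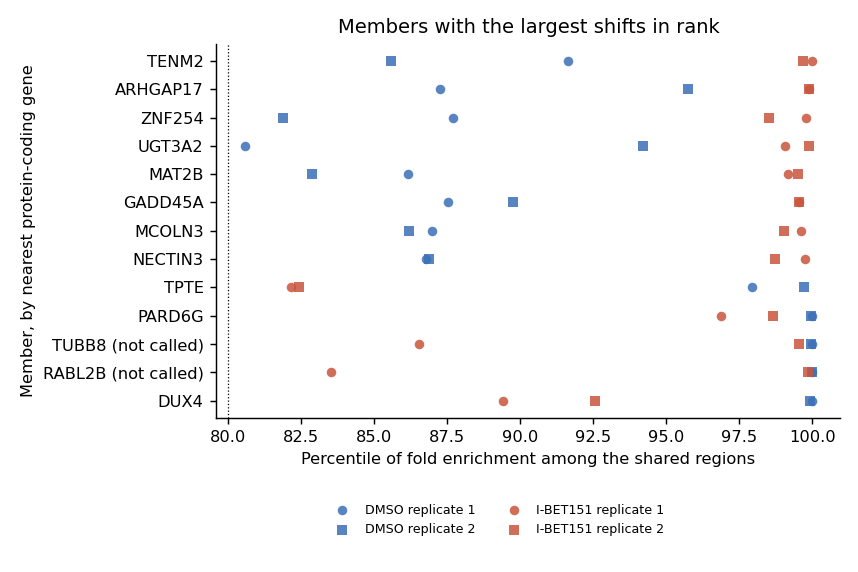
Percentile of fold enrichment (horizontal axis) in DMSO (blue) and I-BET151 (red) libraries for the 8 members called higher and the 5 with the largest fall; circles are replicate 1, squares replicate 2, and the dotted line is the threshold of 80. TENM2 went from 91.6 and 85.6 to 100 and 99.7, and DUX4 from 100 and 99.9 to 89.4 and 92.5.

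The pileup per 1 M reads gave a further view, with depths of 38.7, 36.6, 12.5 and 16 M reads estimated from the lowest background of each list. On this scale the log2 change with I-BET151 had a median of 2.14 in the members, 0.24 more than over all shared regions, with a difference of 0.25 in the first and 0.22 in the second replicate pair. Shared regions near gene starts had a median of 2.05. The pileup is part of the value that chose the members and the scale rests on estimated depths, so nothing is read from these differences. Among the 13 members with a second copy the median log2 change was -0.30 and 9 of 13 were lower with I-BET151, against a median of 2.15 and 3 of 779 in the other members. Those 3 were the TPTE region above and 2 wider regions, near KCNJ18 (chr17:21985847-21991481) and near TPTE (chr21:7257741-7260880).

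The members with a CTCF match were compared with the rest of the members within each library. The median percentile of the 11 members with a match, less that of the 781 without, was -4.84 and 0.103 in the DMSO libraries and 0.379 and 1.80 in the I-BET151 libraries. The difference between the groups was 3.46 percentile points. It is given as a description, since the percentiles chose the members and 2 against 2 libraries cannot reach a p under 0.333. Without DMSO replicate 1 the difference was 0.983, and by ranks of −log10 p it was -1.33, so its direction depended on the ranking value. The strongest of the 11, in an intron of LINC01612 and 168 kb from AADAT (chr4:170259567-170260196), was at percentiles of 98.2, 98.4, 98.8 and 98.9, and the next with a printed sequence, 36.0 kb from PXYLP1 (chr3:141192157-141192744), at 88.3, 89.0, 98.8 and 98.7.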

How the data were processed

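ATAC-seq peak lists of 4 libraries (2 DMSO, 2 I-BET151) were analysed. The members and gene lists were chosen with earlier results of these data known. Per the study's methods and the labels, the authors aligned reads with Bowtie2 v2.2.5 to hg38, dropped duplicate and mitochondrial reads, and ran MACS2 v2.1.2 on each library without a control. The deposited columns hold a score, the fold enrichment (a ratio of summit pileup to local background, 1 added to each), and −log10 p and −log10 q values from the authors' peak caller. The lowest deposited −log10 q was 1.30 to 1.33 and the lowest −log10 p from 2.95 to 3.39, so the lists go below the p of 1e-05 that the methods give. Shortest peaks were 200, 233, 200 and 256 bp, so read extension differed between libraries.

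Peaks were merged at 1 bp of overlap. The region's summit was that of its strongest peak. Pileups were recovered as whole reads from fold enrichment and p (relative tolerance 0.0001, recovered for 100% of peaks). Their depth limits precision, and Wilson intervals cover counting error only. Ranks were compared with limma 3.58.1 in R 4.3.3 without covariates, with variances moderated over all regions (eBayes) and Benjamini-Hochberg adjustment over 25627 regions. Further copies of the shared distal regions, but not of those near gene starts, were searched with BLAST+ 2.17.0 in hg38 (megablast). Regions were named by the nearest protein-coding gene start: the 10 with the highest lowest-of-4 percentile, those nearest to a pancreatic or Notch gene, the 5 largest rises and falls in rank (falls without the threshold, since 3 passed), and 3 regions on either side of the percentile threshold. Sequences of the 6 strongest members with and the 4 strongest without the CTCF consensus were printed, outside chromosomes 8 and Y and exons. Scripts were tested on simulated data. Groups of 2 libraries were too small for outlier tests. Alternatives covered the rule, the motif search, pairing and each library left out. The result for 1 region is not reported here.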

Additional observations from a re-analysis of the deposited data

How the results depend on the processing

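The number of members was 261 at percentile 90, 294 with peaks at −log10 p of 10 or more, 486 with an equal number of peaks per list and 505 when every protein-coding and lncRNA transcript start counted, against 792. Leaving out 1 library gave 925 to 1323 members, with 1323 without DMSO replicate 2 and 1264 without I-BET151 replicate 1. All other changes to the rule gave 720 to 1084, but ranks by −log10 p kept only 482 of the 792 among 760. The share with the CTCF consensus was 0.383%, 0.680% and 0.617% under the first 3 of these, 0.758% within 50 bp of the summit, 5.68% with up to 1 and 21.7% with up to 2 mismatches. Leaving out 1 library gave 1.19% to 1.97%. The share within 1 kb of another start was 27.3% to 35.4% without 1 library, 31.9% and 36.2% at 500 bp and 3 kb, and 47.5% by ranks of −log10 p, a comparison added after seeing the data. A second copy at 90% identity was found for 2.02% of members.

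Members called higher and lower numbered 8 and 3. They numbered 0 and 5 by ranks of −log10 p, 778 and 5 by log2 pileup per 1 M reads, 10 and 10 after median centring, and 2 and 5 with peaks at −log10 p of 10 or more. The uncentred pileup called 24614 of 25627 shared regions higher and 16 lower. Ranks of −log10 p called 8 of them higher and 27 lower, and median-centred pileup 174 and 1188. Peaks at −log10 p of 10 or more gave 840 and 594 of 13209 regions. Leaving out 1 library also from the rule, which changed the members to 925 to 1323 and the regions tested to 25771 to 33835, gave 0 to 16 higher and 0 to 20 lower, both 0 by limma without DMSO replicate 1, where 31 and 18 had an unadjusted p under 0.05. With the 792 members and 25627 regions kept, an alternative added after seeing the data, 1 and 0 were called without DMSO replicate 1, 0 and 1 without DMSO replicate 2, 16 and 4 without I-BET151 replicate 1 and 16 and 17 without I-BET151 replicate 2 (limma). Each of these fits takes its spread from the group that kept 2 libraries. Their calls over all regions tested also fell without either DMSO library and rose without either I-BET151 library. The labels give both groups the replicate numbers 1 and 2 but no shared source. With the replicate block, 9 and 5 members were called, all 8 and 3 among them and TUBB8 and RABL2B added to the lower, and the correlation of the replicate differences between groups was -0.14. A crossed replicate block, added after seeing the data, gave 18 and 15. Over all shared regions the replicate block called 985 higher and 652 lower, and the crossed block 1985 and 1567. The CTCF offset was 5.22 and 1.69 within replicate pairs, 0.983 to 5.93 without 1 library and -1.33 by ranks of −log10 p. The log2 change of pileup in members less all shared regions was 0.24, 2.14 without centring, and 0.25 and 0.22 within replicate pairs. The alternatives without multi-copy regions and with −log10 p of 5 or more were also chosen after seeing the data, and gave 779 and 737 members. Causes of these changes were not tested.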
